A study of Mus musculus with 6 samples.

Results

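Astrocytes are represented here by 34 genes, 25 known for the resting or homeostatic functions of these cells and 9 known for the reactive state that follows injury or inflammation. The genes were picked by name, with earlier results of these data known, and found through their Ensembl identifiers. All 34 matched 1 identifier among the 54232 genes counted. They were followed in 6 RNA sequencing libraries of wildtype mouse cortical neurons from CD1, an outbred stock, in 3 groups of 2. The control group carries PDL in its library names, the PA group IKVAV, a laminin-derived peptide presented on a peptide amphiphile, and the PA + PS2 group IKVAV with PEDOT-S, a sulfonated form of a conducting polymer. All 6 libraries, control ones too, carry a peptide amphiphile in the treatment field of the labels. The sources used here do not give age, culture time or dose. They also leave unsaid whether repeats were separate cultures or animals, and the p-values therefore describe the spread among these 6 libraries, which may be technical. A library is called by its group and repeat number below, such as control 1.

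Astrocytes clear glutamate and potassium released by neurons, exchange water and ions with the blood, couple to one another through gap junctions and secrete lipids and matrix proteins that support synapses. They arise from radial glia, the progenitors of the cortex, after neurons have been made, and the 2 cell types share transcripts such as those of Slc1a3, Sox9, Aldoc and Glul. After damage or inflammatory signals astrocytes become reactive and change their cytoskeleton, surface receptors and secreted proteins. Several genes of the reactive set, Cd44 and Emp1 among them, are also known in fibroblasts, mural cells and other cell types.

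The libraries held 30714311 to 33923681 counts, so before scaling 1 CPM (count per 1000000 counts) stood for 30.7 to 33.9 counts. All CPM given here were scaled by the trimmed mean of M values (TMM), with factors from 0.990 to 1.01. Of the 34 members, 30 had enough counts to be tested, 24 of 25 homeostatic and 6 of 9 reactive. Gjb6, Lcn2, Steap4 and Aspg were not tested. Genes were tested with edgeR's quasi-likelihood test with Benjamini-Hochberg adjustment over 17299 genes, at an adjusted p under 0.05. The repeat number was left out of the model and, in a second fit, added to it as a block. Differences between repeat 1 and repeat 2 were shared only in part. They correlated across genes at 0.48 (PA with control), 0.47 (PA + PS2 with control) and 0.29 (PA + PS2 with PA). The block takes the repeat difference as equal in the 3 groups. For the homeostatic genes its median was larger in PA than in PA + PS2, as given below. Without the block 0 genes passed in each of the 3 comparisons, although 103, 1178 and 1332 genes (0.595%, 6.81% and 7.70%) had an unadjusted p under 0.05 for PA versus control, PA + PS2 versus control and PA + PS2 versus PA. Each call of a member below therefore names the block or DESeq2. As a check of the cell type label, 15 neuronal markers summed to 7899 to 8652 CPM per library, against 742.6 to 1102 CPM for the 25 homeostatic astrocyte genes and 11.4 to 37.1 CPM for the 9 reactive ones. The homeostatic sum was led by Slc1a2 (mean 181.5 CPM), which is also transcribed in some neurons, Sparcl1 (108.8), Atp1b2 (99.2) and Glul (97.6). Aqp4 (1.12 CPM) and Gfap (0.535 CPM) added little to it. In bulk RNA, fewer astrocytes and less of a transcript per astrocyte cannot be told apart.

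PA + PS2 held the lowest levels of many astrocyte genes and PA 2 the highest. Of the 30 tested members, 8 fell in PA + PS2 versus PA with the block, where 1.32% of all tested genes fell. Of these 8, Cd44 and Emp1 also fell versus control, where 0.578% of all tested genes fell. Because the members were chosen with earlier results of these data known, these counts and shares are a description, not an independent comparison. The genes that changed by less than 1.4 times over all 6 libraries were among the most abundant ones, including the glutamate transporter Slc1a2 and glutamine synthetase Glul. No member passed between PA and control.

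**Figure D1:**
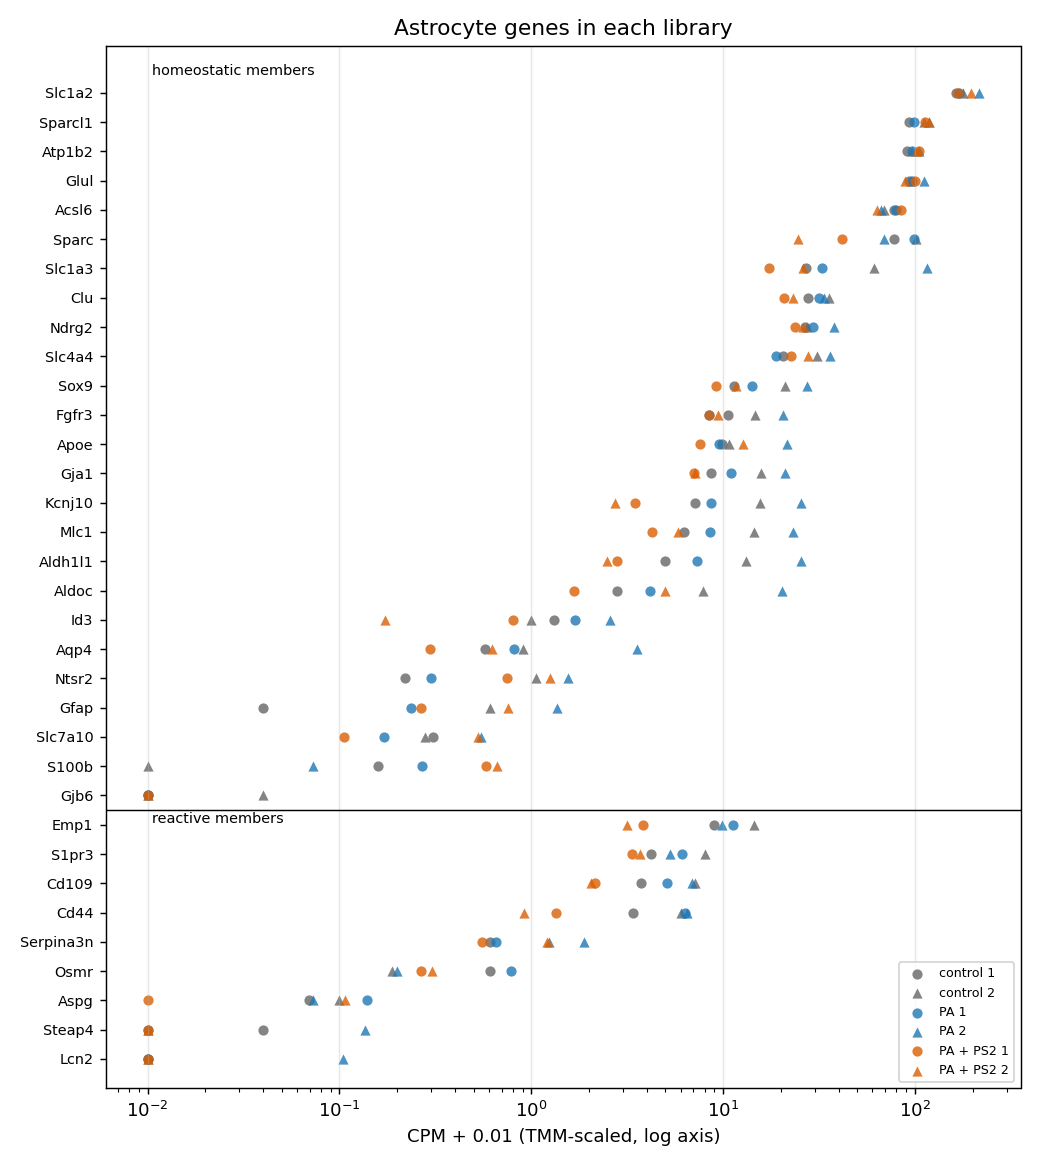
CPM of each of the 34 members in each library, with 0.01 added so that 0 can be drawn on the log axis; circles are repeat 1, triangles repeat 2, and colours the groups. The upper block holds the 25 homeostatic and the lower block the 9 reactive members, each in order of mean CPM. PA 2 lies farthest right for Slc1a3, Aldh1l1, Aldoc and Kcnj10, while the points of Slc1a2, Glul and Atp1b2 lie almost on one another.

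Levels of different genes were compared per kilobase of exon. Sparcl1, a secreted synapse-promoting protein, was highest at a mean of 37.0 CPM per kb over the 6 libraries, followed by Glul at 29.4, Atp1b2 at 24.3, Sparc at 18.1 and Slc1a2 at 13.8 CPM per kb. Ndrg2 and Clu were next and nearly equal, at 8.38 and 8.36 CPM per kb. Among the reactive genes Emp1 led with 1.45 CPM per kb, and S1pr3 was at 1.1, Cd109 at 0.651 and Cd44 at 0.601 CPM per kb. The genes most often used to define mature astrocytes stood near the bottom, with Aqp4 at 0.180 and Gfap at 0.127 CPM per kb.

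Gfap encodes the intermediate filament of astrocytes and rises in most reactive states. It had 1 and 20 counts in controls 1 and 2, 7 and 43 in PA 1 and 2, and 8 and 23 with PA + PS2 1 and 2. Repeat 2 was above repeat 1 in all 3 groups, and the groups overlapped. The highest library, PA 2, reached 1.36 CPM. Gjb6, the connexin 30 gene of mature astrocytes, had 1 count in control 2 and 0 in the other 5 libraries.

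Glutamate uptake was split between transcripts that hardly moved and 1 that moved widely. Slc1a2, the GLT-1 glutamate transporter that is also transcribed in some neurons, was at 163 and 177 CPM in controls 1 and 2, 169 and 215 in PA, and 168 and 197 with PA + PS2. Glul, glutamine synthetase, was at 93.3 and 95.8 CPM in control, 96.4 and 111 in PA, and 100 and 89 with PA + PS2. Over all 6 libraries the highest value was 1.32 times the lowest for Slc1a2 and 1.25 times for Glul. Slc1a3, the GLAST transporter shared by astrocytes and radial glia, was at 27.1 and 61.0 CPM in control, 32.6 and 116 in PA, and 17.3 and 26.0 with PA + PS2. Both PA + PS2 libraries were below the other 4, and PA 2 was 6.71 times PA + PS2 1. Slc1a3 did not pass in edgeR with the block (log2 fold change -1.57 ± 0.37 SE, adjusted p = 0.295, PA + PS2 versus PA) and fell in DESeq2 with the block (adjusted p = 0.0211).

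Among the ion and water transport genes, Kcnj10, Mlc1 and Aqp4 were low in PA + PS2, while Atp1b2 and Slc4a4 were not. Kcnj10, the Kir4.1 potassium channel, was at 7.11 and 15.6 CPM in control, 8.68 and 25.6 in PA, and 3.44 and 2.73 with PA + PS2. Mlc1, a membrane protein of astrocyte endfeet, was at 6.25 and 14.4 CPM in control, 8.52 and 23.2 in PA, and 4.24 and 5.78 with PA + PS2. For both genes the 2 PA + PS2 libraries lay below the other 4. Mlc1 fell in PA + PS2 versus PA with the block (log2 fold change -1.53 ± 0.22 SE, adjusted p = 0.00669) and did not pass versus control (-0.95 ± 0.22 SE, adjusted p = 0.0876). Kcnj10 had larger differences and larger errors (-2.27 ± 0.50 SE versus PA, adjusted p = 0.184 with the block), and fell versus PA in DESeq2 with the block (adjusted p = 0.0372). Aqp4, the water channel of astrocyte endfeet, was at 0.807 and 3.56 CPM in PA, and PA 2 stood far above the rest. Its levels were 0.566 and 0.893 CPM in control and 0.287 and 0.617 in PA + PS2 (adjusted p = 0.0593 versus PA with the block). Atp1b2, a beta subunit of the sodium pump, was the steadiest member: its 6 values ran from 90.4 CPM in control 1 to 105 in PA + PS2 1, a ratio of 1.17. Slc4a4, a sodium bicarbonate cotransporter, ran from 18.9 CPM in PA 1 to 36.2 in PA 2, and each repeat 2 library was above every repeat 1 library.

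Gja1, connexin 43, is the main gap junction protein of astrocytes. It was at 8.60 and 15.7 CPM in control, 11 and 21 in PA, and 7.07 and 7.14 with PA + PS2. It fell in PA + PS2 versus PA with the block (log2 fold change -1.09 ± 0.21 SE, adjusted p = 0.0308). The repeat difference seen in control and PA, 1.83 and 1.91 times, was absent in PA + PS2, where repeat 2 was 1.01 times repeat 1; that contrast was not tested.

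Of the 3 metabolic enzymes, Aldoc and Aldh1l1 varied widely between libraries and Acsl6 did not. Aldoc, the brain aldolase of glycolysis, was at 2.80 and 7.86 CPM in control, 4.13 and 20.2 in PA, and 1.66 and 4.97 with PA + PS2. The highest library, PA 2, was 12.2 times the lowest, PA + PS2 1. Within repeat 1 PA + PS2 was at 0.401 of PA and within repeat 2 at 0.246, and Aldoc fell with the block (log2 fold change -1.73 ± 0.23 SE, adjusted p = 0.00464), although the 2 groups overlapped without regard to repeat. Aldh1l1, a folate enzyme used to mark the whole astrocyte lineage, was at 4.97 and 13.2 CPM in control, 7.29 and 25.4 in PA, and 2.77 and 2.47 with PA + PS2. Both PA + PS2 libraries were the lowest, yet Aldh1l1 did not pass in edgeR with the block (-2.39 ± 0.52 SE versus PA, adjusted p = 0.173) and did in DESeq2 with the block (adjusted p = 0.0374). Acsl6, a fatty acid activating enzyme, ran from 63.3 to 84.0 CPM and both extremes were PA + PS2 libraries.

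Of the secreted proteins, Sparc and Clu were low in PA + PS2, Sparcl1 was not, and S100b was higher. Sparc, a matricellular protein also made by vascular and meningeal cells, was at 77.8 and 101 CPM in control, 98.8 and 68.7 in PA, and 41.7 and 24.5 with PA + PS2. Sparc fell in DESeq2 versus control (adjusted p = 0.0424) and did not pass in edgeR with the block (-1.48 ± 0.37 SE, adjusted p = 0.357). Clu, the extracellular chaperone clusterin, was at 27.7 and 35.5 CPM in control, 31.6 and 33.7 in PA, and 20.7 and 23.1 with PA + PS2. The 4 libraries without PS2 were all above the 2 with it. Clu fell versus PA with the block (-0.58 ± 0.11 SE, adjusted p = 0.0219) and had an adjusted p = 0.0521 versus control. Sparcl1 was at 93.1 and 111 CPM in control, 99.1 and 118 in PA, and 113 and 119 with PA + PS2. Apoe, the lipid carrier, was at 7.52 to 10.7 CPM in 4 libraries, at 12.7 in PA + PS2 2 and at 21.5 in PA 2. S100b, a calcium-binding protein of astrocytes that is also found in oligodendrocyte lineage cells, had 5 and 0 counts in control, 8 and 2 in PA, and 18 and 20 with PA + PS2. Both PA + PS2 libraries were above the other 4, and the difference did not pass (adjusted p = 0.205 versus control and 0.383 versus PA with the block).

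Among receptors and regulators, Sox9 fell with the block. With all 6 libraries and the low count filter, Fgfr3 and Id3 did not pass in edgeR with or without the block. Sox9, a transcription factor of radial glia and astrocytes, was at 11.4 and 20.9 CPM in control, 14.1 and 27.3 in PA, and 9.17 and 11.6 with PA + PS2. It fell in PA + PS2 versus PA with the block (-0.93 ± 0.16 SE, adjusted p = 0.0157). Fgfr3, a fibroblast growth factor receptor of the same cells, was at 10.6 and 14.7 CPM in control, 8.46 and 20.4 in PA, and 8.41 and 9.35 with PA + PS2. Id3, an inhibitor of basic helix-loop-helix factors, was lower at 1.31 and 0.982 CPM in control, 1.68 and 2.55 in PA, and 0.796 and 0.162 with PA + PS2 (adjusted p = 0.0923 versus PA with the block). Id3 fell versus PA in DESeq2 with the block (adjusted p = 0.0408) and in edgeR without a low count filter. Ntsr2, a neurotensin receptor of mature astrocytes, ran from 0.208 CPM in control 1 to 1.55 in PA 2. Ndrg2, a differentiation-associated gene, was at 26.6 and 27.3 CPM in control, 29.3 and 37.8 in PA, and 23.7 and 26.1 with PA + PS2, and Slc7a10, an amino acid exchanger, had 3 to 17 counts per library.

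The reactive genes fell into 2 kinds: 4 genes at several CPM that were lowest in PA + PS2, and 5 genes under 2 CPM in every library. Cd44, the hyaluronan receptor (chromosome 2, 102811141 to 102901665, minus strand, GENCODE M21 on GRCm38), was at 3.36 and 6.01 CPM in control, 6.33 and 6.47 in PA, and 1.34 and 0.909 with PA + PS2. Emp1, an epithelial membrane protein (chromosome 6, 135362545 to 135383173, plus strand), was at 8.99 and 14.5 CPM in control, 11.3 and 9.84 in PA, and 3.79 and 3.15 with PA + PS2. In both genes the PA + PS2 libraries stood clear of the other 4 and repeat 2 was the lower of the pair. Cd44 fell in PA + PS2 with the block versus control (-2.03 ± 0.33 SE, adjusted p = 0.0186) and versus PA (-2.495 ± 0.323 SE, adjusted p = 0.00464). Emp1 fell versus control (-1.74 ± 0.24 SE, adjusted p = 0.0101) and versus PA (-1.60 ± 0.24 SE, adjusted p = 0.00802). Without the block both passed in DESeq2, with adjusted p = 0.000337 and 5.95e-06 versus control.

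Cd109, a membrane-anchored coreceptor for TGF-beta, was at 3.72 and 7.11 CPM in control, 5.10 and 6.84 in PA, and 2.13 and 2.05 with PA + PS2. It fell versus PA with the block (-1.49 ± 0.27 SE, adjusted p = 0.0186) and stood just outside the threshold versus control (-1.31 ± 0.27 SE, adjusted p = 0.0507). S1pr3, a sphingosine 1-phosphate receptor, was at 4.2 and 8.01 CPM in control, 6.10 and 5.27 in PA, and 3.34 and 3.67 with PA + PS2; it did not pass (adjusted p = 0.272 versus control with the block). The remaining reactive members were low. Lcn2, the secreted lipocalin, had 3 counts in PA 2 and 0 in the other libraries, which allows up to 3 counts in each of them. Steap4, a metalloreductase, had 1 count in control 1 and 4 in PA 2 and 0 elsewhere, and Aspg, an asparaginase, had 0 to 4 counts. Serpina3n, a secreted protease inhibitor, ran from 0.541 to 1.86 CPM, and Osmr, the oncostatin M receptor, from 0.179 to 0.775 CPM. Their groups overlapped in every comparison.

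**Figure D2:**
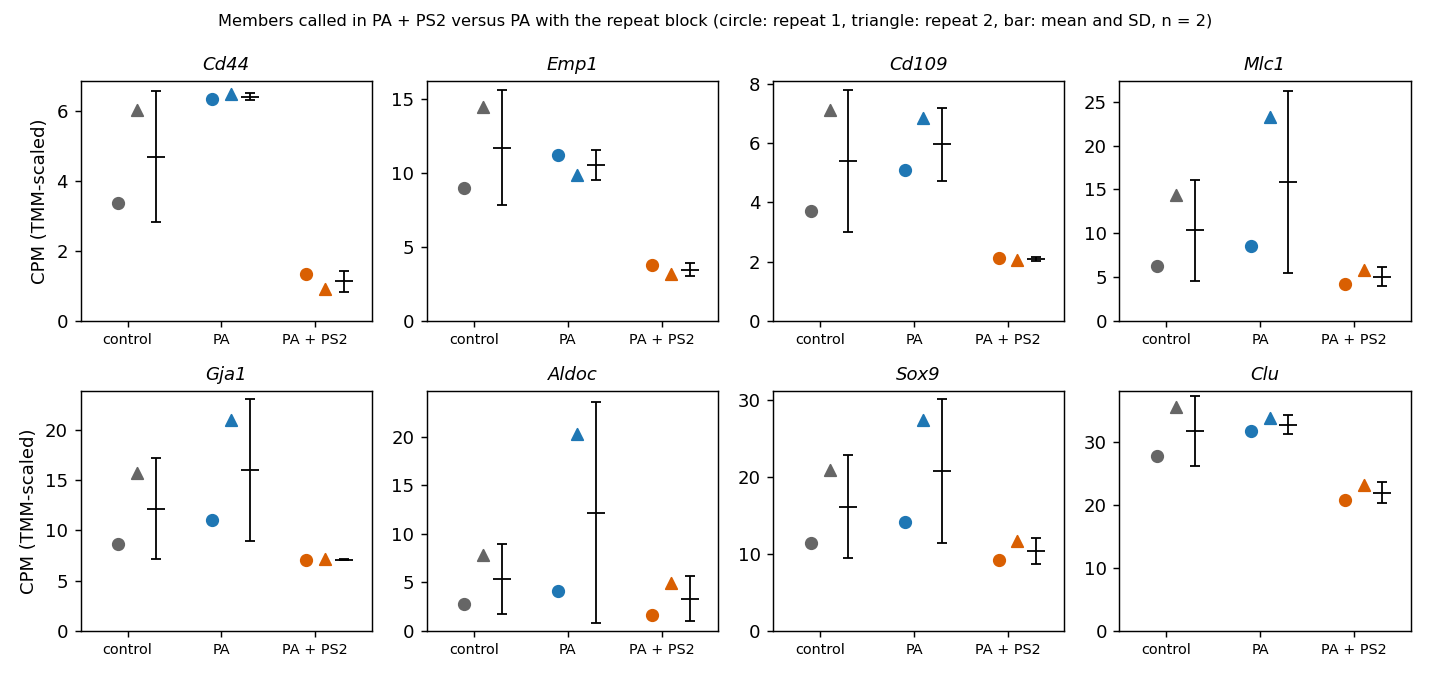
CPM of the 8 members that fell in PA + PS2 versus PA with the repeat block, 1 panel per gene with its own axis from 0; circles are repeat 1, triangles repeat 2, and the black bar gives the mean and SD of n = 2 libraries. The PA + PS2 points lie below those of PA in 7 panels, and in the Aldoc panel PA + PS2 2 at 4.97 CPM lies above PA 1 at 4.13.

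For PA versus control, the question was what the peptide amphiphile changed. Homeostatic genes had a median fitted log2 fold change of 0.38 over the 24 tested, with 22 above 0, where all tested genes had a median of 0.01. The 6 tested reactive genes had a median of 0.23, with 4 above 0. With all 34 members counted on the log2(CPM + 1) scale, 20 of 25 homeostatic genes were higher in PA within repeat 1 (median difference 0.13) and 21 of 25 within repeat 2 (0.37), and 7 and 5 of 9 reactive genes were (0.15 and 0.01). The largest ratios in repeat 2 were 3.99 for Aqp4, 2.6 for Id3 and 2.57 for Aldoc, and in repeat 1 the same genes had ratios of 1.43, 1.28 and 1.48. No member passed with or without the block, against a background of 0% of tested genes in either fit, and none in DESeq2 with the block, against 0.00578%. Both PA libraries were above both controls for 5 of 30 tested members (Glul, Atp1b2, Id3, Ndrg2 and Cd44) against 12.1% of all tested genes, and below for 0, against 9.71%. Without the block the homeostatic median was -0.14 without PA 2 and 0.77 without PA 1. With the block it was 0.08 without PA 2 and 0.53 without PA 1, the lowest and highest values with any 1 library left out. With the block and without PA 1, Slc1a3 and Aldoc passed as higher.

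For PA + PS2 versus control, the question was what the amphiphile with PEDOT-S changed. The 6 tested reactive genes were all below 0 (median log2 fold change -1.09), and 16 of 24 tested homeostatic genes were (median -0.31), where all tested genes had a median of 0.01. With the block 2 of 30 tested members fell, both reactive, and 0 rose, where 0.578% of all tested genes fell and 0.121% rose. DESeq2 without the block had 3 lower (Sparc, Cd44 and Emp1) against 0.636%, and with it 6 (Mlc1 and Clu and Cd109 in addition) against 1.37%. Both libraries of PA + PS2 were below both controls for 14 of 30 tested members against 17.1% of tested genes, and above them for 3 (Atp1b2, Sparcl1 and S100b) against 16.6%. With all 34 counted, 15 of 25 homeostatic genes were lower within repeat 1 and 17 within repeat 2, and 8 and 5 of 9 reactive genes were. The 2 calls with the block were lost without PA + PS2 2 and without control 2. Over the fits with the block and 1 library left out, the log2 fold change of Cd44 ran from -2.54 to -1.49. That of Emp1 ran from -2.18 to -1.27.

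For PA + PS2 versus PA, the question was what PEDOT-S added to the amphiphile. With the block 8 of 30 tested members fell and 0 rose, where 1.32% of all tested genes fell and 0.202% rose. They were 5 of 24 homeostatic genes (Mlc1, Gja1, Aldoc, Clu and Sox9) and 3 of 6 reactive genes (Cd44, Emp1 and Cd109). The medians were -0.64 over the homeostatic and -1.16 over the reactive genes tested, and 0.00 over all tested genes. DESeq2 without the block had 4 lower (Clu, Cd44, Emp1 and Cd109) against 1.01%, and with it 13 against 1.77%. Both PA + PS2 libraries were below both PA libraries for 15 of 30 tested members against 18.4% of tested genes, and above for S100b alone against 16.8%. Within repeats 1 and 2, 16 and 22 of 25 homeostatic genes and 7 and 7 of 9 reactive genes were lower. With the block 3 members passed without PA + PS2 2 (Kcnj10, Aldh1l1 and Cd44), 7 without PA 2, and 13 without PA 1 or PA + PS2 1. This comparison and the one before it share the PA + PS2 libraries.

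**Figure D3:**
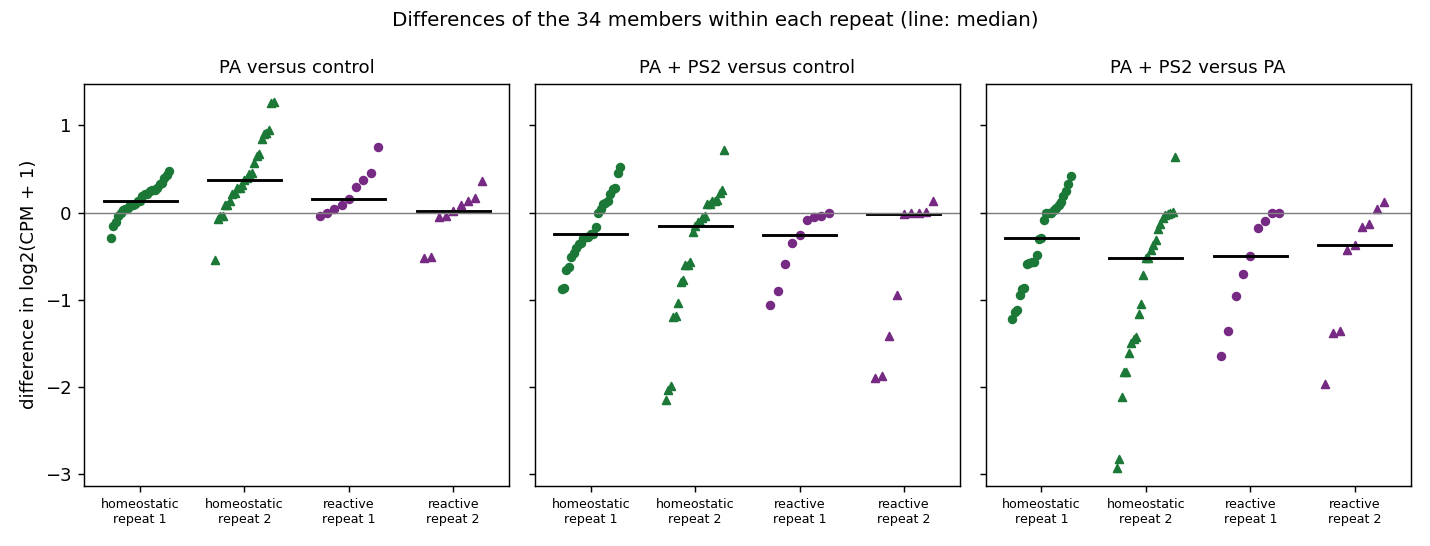
Difference in log2(CPM + 1) for each of the 34 members, taken within repeat 1 (circles) and within repeat 2 (triangles), for the 3 comparisons; green points are the 25 homeostatic and purple points the 9 reactive members, sorted by value, and the black line is the median. In PA + PS2 versus PA the homeostatic medians are -0.30 in repeat 1 and -0.52 in repeat 2, and the reactive medians -0.50 and -0.38.

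The repeat number moved with the homeostatic genes. In control 21 of 25 homeostatic genes were higher in repeat 2 (median difference 0.35 on the log2(CPM + 1) scale), in PA 21 of 25 (0.87) and in PA + PS2 17 of 25 (0.14). All tested genes had medians of 0.01, 0.00 and 0.00. Of the 9 reactive genes 6, 5 and 4 were higher in repeat 2. Aldh1l1 showed the change of this gap between groups: repeat 2 was 2.65 times repeat 1 in control, 3.48 times in PA and 0.890 times in PA + PS2. With 1 library per group and repeat, that change has no test.

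The sequences before the RefSeq transcription starts are shown for members that fell versus PA with the block, a choice that fixed their shared direction. RefSeq (GRCm38.p6) had an entry for 28 of the 34 members and for 5 of the 8 that fell versus PA. Each line gives the 250 bases before the first RefSeq start, 5′ to 3′ on the gene's own strand, for Emp1 (chr6:135362681-135362930, plus strand), Gja1 (chr10:56377050-56377299, plus strand), Cd44 (chr2:102901666-102901915, minus strand), Mlc1 (chr15:88978554-88978803, minus strand) and Aldoc (chr11:78322823-78323072, plus strand). GENCODE M21 starts Emp1, Mlc1 and Aldoc farther upstream than these RefSeq starts. By its coordinates the Emp1 and Mlc1 windows lie inside the gene, and the Aldoc window does in part. Capitals mark matches, on either strand, to 4 motifs: TGANTCA for AP-1, GGAATG for TEAD factors, TTCNNNGAA for STAT factors and TGGGAA for RBPJ, the DNA-binding partner of Notch.
Emp1: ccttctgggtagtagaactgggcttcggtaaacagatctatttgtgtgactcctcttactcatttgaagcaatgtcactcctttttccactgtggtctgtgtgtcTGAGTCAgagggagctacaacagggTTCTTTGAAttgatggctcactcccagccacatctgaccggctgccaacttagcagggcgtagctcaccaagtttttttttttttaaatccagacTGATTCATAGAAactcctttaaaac
Gja1: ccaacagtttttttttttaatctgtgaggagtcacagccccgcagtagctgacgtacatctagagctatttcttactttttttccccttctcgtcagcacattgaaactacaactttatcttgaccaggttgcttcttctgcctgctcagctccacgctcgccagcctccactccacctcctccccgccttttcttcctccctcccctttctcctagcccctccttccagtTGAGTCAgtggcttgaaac
Cd44: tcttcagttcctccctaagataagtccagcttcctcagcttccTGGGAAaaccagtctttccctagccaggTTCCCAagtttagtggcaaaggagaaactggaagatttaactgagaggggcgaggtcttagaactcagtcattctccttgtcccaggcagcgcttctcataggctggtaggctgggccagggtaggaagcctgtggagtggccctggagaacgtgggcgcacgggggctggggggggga
Mlc1: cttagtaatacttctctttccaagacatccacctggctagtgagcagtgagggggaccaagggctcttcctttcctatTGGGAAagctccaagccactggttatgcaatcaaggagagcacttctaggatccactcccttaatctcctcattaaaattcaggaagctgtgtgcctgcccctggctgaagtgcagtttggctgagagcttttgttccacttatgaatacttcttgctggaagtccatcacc
Aldoc: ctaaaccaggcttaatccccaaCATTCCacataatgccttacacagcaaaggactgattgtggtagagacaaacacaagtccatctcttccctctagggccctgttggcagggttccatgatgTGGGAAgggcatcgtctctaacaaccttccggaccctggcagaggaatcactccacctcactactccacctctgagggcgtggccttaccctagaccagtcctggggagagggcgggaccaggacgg
Emp1 held 2 AP-1 matches, 145 to 139 and 25 to 19 bases before the start, and 2 STAT matches, 120 to 112 and 22 to 14 bases before it; the AP-1 and STAT matches nearest the start overlap. Gja1 held 1 AP-1 match, 19 to 13 bases before the start. Cd44 held 2 RBPJ matches, 1 on each strand, Mlc1 held 1, and Aldoc held 1 RBPJ and 1 TEAD match. Over all 32851 promoter windows of 250 bases, 6.75% held an AP-1 match, 12.6% a TEAD match, 7.02% a STAT match and 21.6% an RBPJ match. Of the 38 windows of the 28 members with an entry, 3, 3, 5 and 11 held them. Aldoc's second window, not printed here, held 2 STAT matches and 1 RBPJ match. Emp1 also had a second window, likewise not printed, and it held 0 matches. A match is only a run of letters and says nothing on whether a factor binds there.

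All 5 further pan-reactive genes had fitted log2 fold changes below 0 in both PA + PS2 comparisons. With the block 0 of 5 passed versus control and 1 fell versus PA, where 0.578% and 1.32% of all tested genes fell. The gene that fell was Vim, the intermediate filament vimentin, at 164 and 222 CPM in control, 190 and 215 in PA, and 144 and 145 with PA + PS2 (adjusted p = 0.0250). Timp1, a protease inhibitor, was at 0.566 and 0.298 CPM in control and 0.0637 and 0.0649 in PA + PS2, and did not pass (adjusted p = 0.234 versus control with the block). Cxcl10, a chemokine, had 18 and 12 counts in control, 5 and 14 in PA and 0 in both PA + PS2 libraries, which allows up to 3 counts in each, and did not pass either (adjusted p = 0.0901 versus control with the block). None of 10 further genes of the A2 state, named for ischaemic injury, passed with the block or in DESeq2, with B3gnt5, a glycosyltransferase, highest at 62.9 to 79.3 CPM. None of 11 genes of the A1 state, named for inflammatory induction, passed in edgeR with the block or in DESeq2 alone. In DESeq2 with the block 1 fell in each PA + PS2 comparison, where 1.37% of all tested genes fell versus control and 1.77% versus PA. The A1 gene that fell was Fbln5, an elastic fibre protein (adjusted p = 0.00456 versus control and 0.0302 versus PA), named after its values were seen. The most abundant genes of the list included H2-D1, a class I antigen-presenting protein, at 36.3 to 58.9 CPM and Fkbp5, a glucocorticoid-induced chaperone, at 51.1 to 56.5 CPM. In these 3 lists 0 of 5, 4 of 10 and 4 of 11 genes were too low to test.

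Of 18 genes of the gp130 and STAT3 pathway, through which interleukin 6 family cytokines drive astrocyte formation and reactivity, 15 were tested and none passed in edgeR with or without the block or in DESeq2 without it. Receptor chains were present, with Il6st at 42.5 to 50.3 CPM and Lifr at 42.6 to 52.1 CPM, and the kinase Jak1 was at 192 to 215 CPM. The ligands were near 0, with Osm at 0 to 0.0631 CPM and Il6 at 0 to 0.129 CPM. Stat3 was at 52.1 and 51.5 CPM in control, 51.6 and 61.8 in PA, and 42.7 and 41.6 with PA + PS2. Its PA + PS2 libraries were the 2 lowest, with an adjusted p = 0.0519 versus PA in edgeR with the block and 0.0414 in DESeq2 with the block.

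Genes that direct astrocyte formation moved both ways in PA + PS2. Of 18, 2 fell and 1 rose with the block in each PA + PS2 comparison. Over all tested genes 0.578% fell and 0.121% rose versus control, and 1.32% fell and 0.202% rose versus PA. Notch1, the receptor that keeps progenitors undifferentiated, was at 8.84 and 23.4 CPM in control, 14.2 and 37.4 in PA, and 5.64 and 8.08 with PA + PS2, and fell in both (adjusted p = 0.0470 versus control and 0.00464 versus PA). Hes1, a Notch target, fell versus control (adjusted p = 0.0432), and Notch2 fell versus PA (adjusted p = 0.0426). Zbtb20, a transcription factor that promotes astrocyte formation and is also present in neurons, was at 163 and 261 CPM in control, 168 and 248 in PA, and 240 and 332 with PA + PS2, and rose with the block (adjusted p = 0.0144 and 0.00655). Its groups overlapped when the repeat was disregarded.

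Among 29 further astrocyte genes, 25 were tested; 1 fell versus control and 4 fell versus PA with the block, and 0 rose. Over all tested genes 0.578% and 1.32% fell. Gpc4, a glypican by which astrocytes promote excitatory synapses, was at 27.2 and 46.1 CPM in control, 32.9 and 38.9 in PA, and 18.7 and 19.9 with PA + PS2 (adjusted p = 0.0287 and 0.0168). Megf10, a phagocytic receptor, was at 7.77 and 12.4 CPM in control, 8.65 and 15.8 in PA, and 4.81 and 4.35 with PA + PS2, and fell versus PA (adjusted p = 0.0166), as did Ezr, ezrin of fine astrocyte processes (adjusted p = 0.00655). Ppp1r3c, a glycogen regulator, fell versus PA as well (adjusted p = 0.0300). The list's median log2 fold changes were 0.17 for PA versus control, -0.40 for PA + PS2 versus control and -0.87 for PA + PS2 versus PA.

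Markers of other cell types moved with the same libraries, but these lists are not separate from those above or from one another. The progenitor list shares Fabp7, Tnc and Ptprz1 with the further astrocyte genes and Vim with the pan-reactive genes. It also shares Sox2, Hes1 and Hes5 with the genes that direct astrocyte formation. Pdgfra is in both the precursor and the mural list. The 14 radial glia and progenitor genes summed to 633 and 964 CPM in control, 664 and 1248 in PA, and 542 and 599.6 with PA + PS2. The 25 homeostatic astrocyte genes summed to 761.9 and 921 CPM in control, 826 and 1102 in PA, and 743 and 758 with PA + PS2, and the 6 libraries stood in the same order for both sums. With the block 2 of the 14 fell in each PA + PS2 comparison, where 0.578% of all tested genes fell versus control and 1.32% versus PA. Nes, the progenitor filament, was among those that fell versus control (adjusted p = 0.0303). The 8 oligodendrocyte precursor genes summed to 57.7 and 108 CPM in control, 53.6 and 149 in PA, and 28 and 21.1 with PA + PS2, with Neu4 at 0 in all 6. The 10 mural and fibroblast genes summed to 147 and 178 CPM in control, 182 and 122 in PA, and 104 and 42.6 with PA + PS2. With the block 1 of 7 tested precursor genes fell versus control and 2 versus PA. Of the 10 mural genes 0 fell versus control and 2 versus PA. Cd44 and Emp1 were lowest in the 2 PA + PS2 libraries, in which the progenitor, precursor and mural sums were also the lowest of the 6. The mural sum was led by Acta2 (mean 52.2 CPM), and its genes differed. Both PA + PS2 libraries were below both controls for 7 of the 10 (17.1% of all tested genes). They were below both PA libraries for 6 (18.4%). Col1a2, Col3a1 and Lum were higher in PA + PS2 1 than in control 2 and PA 2. The part of these cell types in the astrocyte results was not tested.

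The 15 neuronal genes summed to 8298 and 8652 CPM in control, 8315 and 8428 in PA, and 8577 and 7899 with PA + PS2. With the block 1 of them, Gad1, fell versus PA (adjusted p = 0.0485) and 0 fell versus control. Over all tested genes 1.32% and 0.578% fell. The 10 mature oligodendrocyte genes summed to 45.3 and 45.9 CPM in control, 58.7 and 49.2 in PA, and 75.5 and 110 with PA + PS2, the 2 libraries in which S100b was highest. With the block 2 of 9 tested rose versus control and 1 rose versus PA, where 0.121% and 0.202% of all tested genes rose. Microglial genes summed to 8.07 to 9.97 CPM with 8 of 10 under 1 CPM on average, endothelial genes to 4.71 to 10.4 CPM with Ly6c1 at 0 in all 6 and the 2 PA + PS2 libraries lowest, and ependymal genes to 12.1 to 18.5 CPM. No member of those last 3 lists passed with the block.

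**Figure D4:**
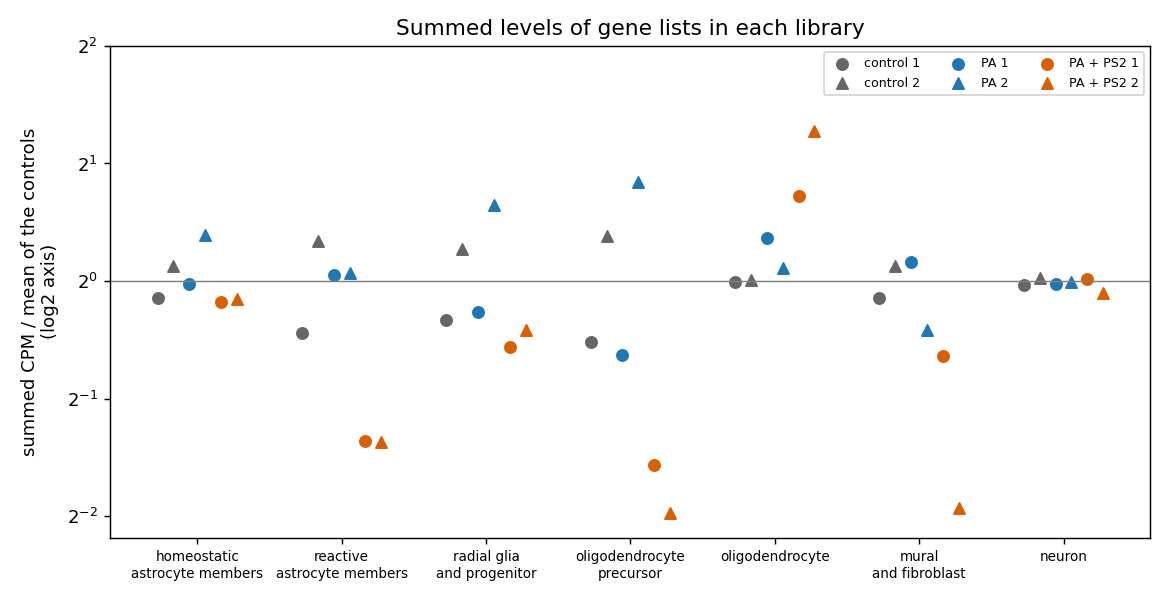
Summed CPM of each gene list in each library, divided by the mean of the 2 control libraries of that list, on a log2 axis; circles are repeat 1, triangles repeat 2, and colours the groups. The reactive astrocyte, oligodendrocyte precursor and mural sums are lowest in PA + PS2, where the precursor genes sum to 28 and 21.1 CPM, and the neuronal sums lie close to the control line.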

How the data were processed

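RNA was measured by sequencing in 6 libraries, 3 groups of 2 taken from the sample titles. The authors deposited untransformed read counts for each Ensembl gene; the file headers name the column. The submitters' processing notes list the mm10 build, STAR 2.7.5, cutadapt 4.2, DESeq2 1.14.1 and HTSeq 2.0.2 with no order of use. Strand settings were not stated. Exons of Slc1a2, Glul, Aldh1l1, Acsl6, Fgfr3, Slc7a10 and S1pr3 overlap another counted gene, so their counts are uncertain.

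The test was that of edgeR 4.0.16, run in R 4.3.3 (quasi-likelihood test, robust; filterByExpr; TMM; all 6 libraries in 1 model with 3 residual degrees of freedom). Alternatives were DESeq2 1.42.0, voom of limma 3.58.1, other scalings and filters, the repeat block, the 2 groups alone and each library left out. Scripts were tested on simulated data. Repeat 1 minus repeat 2 differences in log2(CPM + 1) correlated across 17299 genes at 0.48 (PA with control), 0.47 (PA + PS2 with control) and 0.29 (PA + PS2 with PA); the pairing thus comes from the data, not the labels. With the block, 2 degrees of freedom remain and the biological coefficient of variation was 9.57% (16.7% without). Libraries of 1 group differed by more than counting error, with a chi-square of 14.6 to 21.1 times its degrees of freedom. Each SE is the log2 fold change divided by the root of F. Lengths and coordinates came from GENCODE M21.

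Members named with all library values had a mean of at least 5 CPM, were called by edgeR with or without the block or by DESeq2, or were under 5 CPM with 2 groups that did not overlap and an absolute log2 fold change over 1; others named were chosen after their values were seen. The members and lists were chosen with earlier results of these data known.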

Additional observations from a re-analysis of the deposited data

How the results depend on the processing

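With the replicate block 121 genes passed for PA + PS2 versus control and 263 for PA + PS2 versus PA, of which 2 and 8 were members. DESeq2 had 130 and 200 genes (3 and 4 members), DESeq2 with the block 279 and 364 (6 and 13), edgeR without a low count filter 425 and 501 (5 and 8), and the 2 groups alone with the block 656 and 146 (10 and 7). For PA versus control these gave 0 genes with the block and in DESeq2, 1 in DESeq2 with the block, 2 without a filter and 2 with the 2 groups alone and the block, and no member. RLE size factors, library totals, a filter of 50 counts in 2 libraries, limma-voom and the 2 groups alone called 0 genes. Leaving out each library in turn, with or without the block, gave 0 to 21 genes and 0 to 2 members for PA versus control, 0 to 759 and 0 to 11 for PA + PS2 versus control, and 0 to 852 and 0 to 13 for PA + PS2 versus PA. The homeostatic median ran from -0.14 to 0.77, -0.56 to -0.09 and -1.07 to -0.16 in those 3 comparisons, and the reactive median from -0.11 to 0.55, -1.48 to -0.77 and -1.38 to -1.0. For PA + PS2 versus control the homeostatic median was -0.40 in DESeq2 with the block, -0.54 with the stricter filter and -0.39 in limma-voom. For PA + PS2 versus PA the reactive median was -1.09 in DESeq2 with the block, in limma-voom and with the 2 groups alone and the block, -1.10 with the block and -1.56 with the stricter filter, which tests fewer genes. Under another scaling, filter or tool no log2 fold change of a named member changed sign at 2 decimals; those of Acsl6 and Glul for PA + PS2 versus control lay within 0.01 of 0. Over the fits with 1 library left out these log2 fold changes of named members spanned 0: for PA versus control, Acsl6 -0.14 to 0.10, Aldh1l1 -0.33 to 1.71, Aldoc -0.38 to 2.11, Apoe -0.12 to 1.07, Cd109 -0.25 to 0.67, Clu -0.12 to 0.23, Emp1 -0.57 to 0.33, Fgfr3 -0.59 to 0.69, Gja1 -0.16 to 0.89, Glul -0.02 to 0.26, Kcnj10 -0.40 to 1.26, Mlc1 -0.29 to 1.34, S100b -0.23 to 5.38, S1pr3 -0.52 to 0.45, Slc1a2 -0.03 to 0.34, Slc1a3 -0.45 to 1.45, Slc4a4 -0.46 to 0.49, Sox9 -0.21 to 0.85, Sparc -0.61 to 0.39, Sparcl1 -0.06 to 0.21; for PA + PS2 versus control, Acsl6 -0.21 to 0.20, Aldoc -1.68 to 0.24, Apoe -0.50 to 0.35, Glul -0.16 to 0.14, Slc1a2 -0.02 to 0.20, Slc4a4 -0.30 to 0.29; for PA + PS2 versus PA, Acsl6 -0.19 to 0.21, Apoe -1.09 to 0.09, Atp1b2 -0.02 to 0.12, Fgfr3 -1.20 to 0.08, Glul -0.27 to 0.01, Slc1a2 -0.24 to 0.12, Slc4a4 -0.53 to 0.42, Sparcl1 -0.03 to 0.23. Why the calls depend on single libraries was not tested. The 9 members with a mean under 1 CPM rest on few counts, and 4 of them were too low to test.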
